A study of Homo sapiens with 12 samples.

Results

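The genes described here are 34 members of the cell's unfolded protein and amino acid stress programmes, chosen by symbol from the 26485 genes counted in each sample of DU145 spheroids. They fall into an ATF4 arm of 17 genes, to which ASNS and TRIB3 belong, and an endoplasmic reticulum (ER) arm of 17 genes, to which HSPA5 and PDIA4 belong, and all 34 were among the 14732 genes with enough counts to test. DU145 is an established human prostate cancer cell line derived from a metastasis in the central nervous system, and all 12 samples carry a CRISPR-Cas9 knockout of ITGA2, the gene of the α2 subunit of the collagen receptor α2β1 integrin. The α2 negative cells themselves (DU145KO) were compared with the same cells stably transfected with an α2 cDNA (DU145KO+α2) or with the empty vector (DU145KO+vector), with 4 biological replicates of each of the 3 lines. The knockout was a sorted pool of transfected cells, and the transfected lines were kept under antibiotic selection with geneticin, an agent that DU145KO is not described as having received, so the DU145KO+vector cells are the matched control for the α2 positive cells. Every culture was grown as spheroids of 8000 cells, with 280000 cells in a mold, in serum-free medium for 72 h.

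When unfolded proteins accumulate in the ER, the sensors IRE1, ATF6 and PERK are released from the chaperone BiP. IRE1 splices the XBP1 mRNA and ATF6 is cut free to enter the nucleus, and both routes raise ER chaperones, disulfide isomerases and degradation factors. PERK, and GCN2 when amino acids run short, phosphorylate the translation factor eIF2, which lowers general translation but favours translation of ATF4, a transcription factor for amino acid synthesis, uptake and tRNA charging. The ATF4 arm can therefore rise without the ER arm, as in amino acid shortage, or together with it.

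Promoters were read for the letters that the ER stress factors are known to bind, to show which of the 2 arms holds them. The windows were the 250 bases before each RefSeq transcription start on GRCh38.p14, which were at hand for 29 members (not for PSPH, SHMT2, ALDH1L2, NUPR1 and PDIA3). The ER stress response element (ERSE, the letters CCAAT and CCACG with any 9 bases between them, bound by ATF6 together with NF-Y) was found on either strand in 6 of 16 ER arm promoters and in 0 of 13 ATF4 arm promoters, against 0.0806% of the 27305 promoters in the table. The related ERSE-II (ATTGG and CCACG with any 1 base between them) was found in 3 of 16 ER arm promoters against 0.0513% of all. The unfolded protein response element (UPRE, TGACGTGG) was found in 1 of 16 against 0.667%, in the HYOU1 promoter, where it shares bases with an ERSE-II. The composite site of C/EBP and ATF factors (TGATGNAAT), through which ATF4 is known to act, was found in no member of either arm and in 0.916% of all promoters. Only these exact letters were searched for it, and at that share few matches would be expected in 13 promoters. Its absence therefore does not tell the ATF4 arm from other genes. The motifs found are matches of letters within a short window and say nothing of binding.

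The 3 promoters with a motif whose genes had the smallest p between the lines are given 5′ to 3′ on the gene's own strand, with the matched letters in capitals. That of CANX lies at chr5:179698679-179698928 on the plus strand and holds an ERSE. The XBP1 promoter, at chr22:28800570-28800819 on the minus strand, also holds an ERSE. That of HYOU1, at chr11:119057206-119057455 on the minus strand, holds an ERSE-II at each of 2 places, read on the opposite strand, the first sharing bases with the UPRE. The CANX window lies inside the annotated gene (chr5:179678628-179731641), and the other windows overlap the 5′ ends of theirs.
CANX: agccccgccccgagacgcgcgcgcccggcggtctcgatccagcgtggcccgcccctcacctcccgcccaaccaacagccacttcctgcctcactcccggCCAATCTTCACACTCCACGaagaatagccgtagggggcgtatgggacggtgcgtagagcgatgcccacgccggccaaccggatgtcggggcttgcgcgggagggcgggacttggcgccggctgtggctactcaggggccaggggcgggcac
XBP1: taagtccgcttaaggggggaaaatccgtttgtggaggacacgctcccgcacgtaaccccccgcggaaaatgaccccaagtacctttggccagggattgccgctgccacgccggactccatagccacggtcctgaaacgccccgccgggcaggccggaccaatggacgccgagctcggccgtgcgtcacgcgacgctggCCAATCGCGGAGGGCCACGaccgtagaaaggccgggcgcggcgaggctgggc
HYOU1: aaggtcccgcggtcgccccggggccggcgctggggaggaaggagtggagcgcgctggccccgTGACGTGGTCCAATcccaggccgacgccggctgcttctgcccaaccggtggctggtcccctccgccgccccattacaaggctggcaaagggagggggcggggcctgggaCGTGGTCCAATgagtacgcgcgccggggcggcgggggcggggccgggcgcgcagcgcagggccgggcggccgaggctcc

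The ERSE matches of the ER arm genes differ in the 9 bases between the fixed ends, in their distance from the start and in their strand, and are given here in the orientation of the motif with its fixed letters in capitals. The match in XBP1 ends 33 bases before the start, that in HSPA5 47 bases, in CRELD2 61 bases, in CANX 132 bases and in CALR 206 bases, and HSP90B1 holds a pair, 70 and 175 bases before its start. The first HSP90B1 match listed lies farther from the start on the gene's own strand, and those in CALR and CRELD2 and the second in HSP90B1 lie on the opposite strand.
HSPA5: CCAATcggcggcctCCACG
HSP90B1 first: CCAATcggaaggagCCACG
HSP90B1 second: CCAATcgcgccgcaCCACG
CALR: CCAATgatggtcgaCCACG
CANX: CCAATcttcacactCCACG
XBP1: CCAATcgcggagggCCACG
CRELD2: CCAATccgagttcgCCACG

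Total counts ranged from 13948734 to 19988111 per sample. The transfected α2 was seen in the counts: ITGA2 stood at 259 to 332 CPM (the count scaled to a common library size) in DU145KO+α2, at 13.0 to 20.2 CPM with the vector and at 15.7 to 25.8 CPM in DU145KO (exact permutation test, two-sided, p = 0.0286 for the α2 positive line against either, the smallest p that 4 against 4 samples allow, and p = 0.343 for vector against DU145KO). Of the epithelial and DU145 markers, KRT8, KRT18, KRT19, EPCAM, CDH1 and VIM were counted at 735 reads or more in every sample, the prostate luminal markers KLK3 and KLK2 had no count, and of the markers of other cells PTPRC had at most 1 count, COL3A1 at most 3, VWF at most 4 and LUM none, while PECAM1 (8 to 22 counts), COL1A1 (111 to 209) and CD68 (778 to 1464) were counted in every sample. EPCAM and CDH1, both epithelial adhesion genes, had lower means in the transfected lines, with EPCAM at a mean of 72.1 CPM with α2, 89.4 CPM with the vector and 159 CPM in DU145KO, and CDH1 at 61.3, 99.9 and 135 CPM in the same order. Not every such difference passed edgeR's test at an adjusted p under 0.05. Of the 6 markers 1 was called lower with α2 than with the vector (11.9% of all genes called). Against DU145KO, 3 were called lower with α2 (8.17%) and 1 with the vector (2.34%). The part of such differences in the results below was not tested. In bulk RNA, fewer cells of one kind and less RNA per cell cannot be told apart.

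Expressed per kilobase of transcript in the deposited RPKM values, the ER arm held the more abundant mRNAs. CALR (calreticulin) had a median of 347 RPKM over the 12 samples, HSPA5 (BiP, the main ER chaperone of the Hsp70 family) 332 RPKM and HSP90B1 (GRP94) 286 RPKM, followed by PDIA3 and ATF4 at 198 RPKM each and PSAT1 at 163 RPKM. The lowest medians were those of ALDH1L2 at 2.70 RPKM, CTH at 4.51 RPKM, ATF5 at 5.16 RPKM and SESN2 at 7.24 RPKM. Every member had at least 82 counts in each sample. The lowest count was that of NUPR1.

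The largest differences within the ATF4 arm ran not between the lines but between the replicate numbers. The labels number the replicates of each line 1 to 4, and samples that share a number moved together about the means of their lines, although what the number stands for is not given. With line and number in one model, 11 of the 17 ATF4 arm genes (64.7%) and 8 of the 17 ER arm genes (47.1%) varied with the number by edgeR's quasi-likelihood test with Benjamini-Hochberg adjustment over all genes, against 35.7% of all genes tested. The size and direction of the variation were as follows. The highest and lowest of the 4 number means lay a median of 0.75 apart on the log2 scale in the ATF4 arm (1.68-fold), 0.22 in the ER arm (1.16-fold) and 0.28 over all genes (1.22-fold). The samples numbered 3 were the highest of their line in all 3 lines for 9 of the 17 ATF4 arm genes and for 0 of the 17 ER arm genes, against 6.75% of all genes. They were the lowest of their line in all 3 lines for 4 ER arm genes and 0 ATF4 arm genes, against 5% of all genes. The total counts of the samples numbered 3, of 16365603 to 17176878, lay within the range of the other samples.

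**Figure D1:**
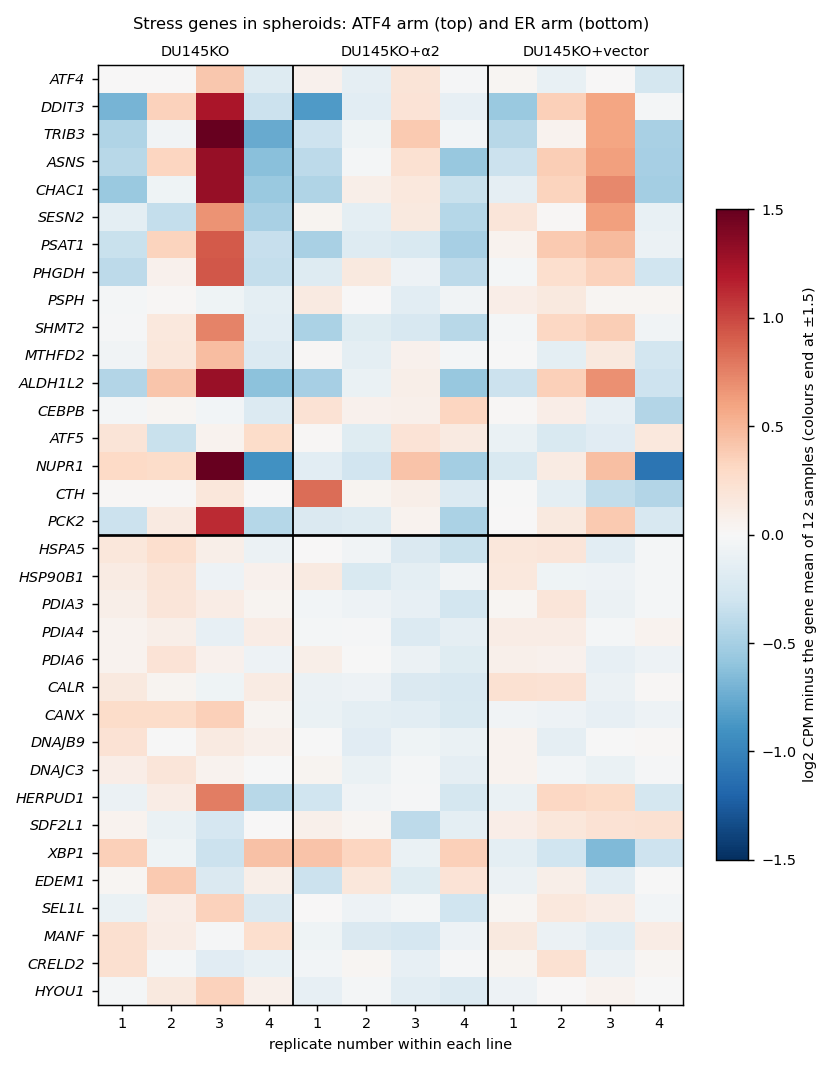
Log2 CPM of each of the 34 genes (lines of the grid) in each of the 12 samples (columns, by line and replicate number), shown as the difference from the gene's mean over all samples. In the ATF4 arm the column of replicate 3 stands out in DU145KO and, less so, in the other lines, while the ER arm shows smaller differences, with HERPUD1 and XBP1 as the most variable genes.

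ATF4 itself, the transcription factor of the arm, had 407, 404, 536 and 353 CPM in replicates 1 to 4 of DU145KO, 423, 369, 463 and 399.7 CPM with α2, and 412, 375, 406 and 337 CPM with the vector. Replicate 3 was the highest in DU145KO and DU145KO+α2 and replicate 1 in DU145KO+vector. The number means spanned 1.29-fold (edgeR's quasi-likelihood test, adjusted p = 0.00412), and with the 3 samples numbered 3 left out the adjusted p was 0.0701, the highest of 18 alternatives. DDIT3, which encodes the pro-apoptotic factor CHOP, had 17.9, 36.8, 67.4 and 23.0 CPM in DU145KO, 16.02, 25.9, 33.3 and 26.4 CPM with α2 and 19.6, 37.1, 43.7 and 28.3 CPM with the vector. In each line it was lowest in replicate 1 and highest in replicate 3, with number means 2.59-fold apart (adjusted p = 0.00975).

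TRIB3, a pseudokinase induced by ATF4 and CHOP, had 49.0, 64.4, 192 and 39.6 CPM in DU145KO, 54.0, 64.1, 87.7 and 64.8 CPM with α2 and 50.2, 69.4, 101 and 47.6 CPM with the vector. Replicate 3 was the highest in every line. The number means lay 2.40-fold apart, with an adjusted p of 0.0494 (edgeR's quasi-likelihood test) that did not hold in 10 of 18 alternatives (0.000878 to 0.115), 9 of them fits that left out a single sample (all but replicate 3 of DU145KO and replicates 3 and 4 of DU145KO+α2). SESN2 (sestrin 2), which restrains mTORC1 when leucine is scarce, had 23.9, 20.7, 42.2 and 18.9 CPM in DU145KO, 27.2, 24.0, 29.3 and 19.7 CPM with α2 and 30.1, 26.7, 40.5 and 24.5 CPM with the vector. It was highest in replicate 3 and lowest in replicate 4 of every line, 1.76-fold apart, with the smallest p of the arm (adjusted p = 0.000191; 6.71e-06 to 0.00777 in 18 alternatives).

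The largest span belonged to NUPR1, a small stress-induced chromatin protein, with number means 3.14-fold apart (adjusted p = 0.00842, edgeR). It had 14.8, 14.6, 36.1 and 6.44 CPM in DU145KO, 10.8, 9.89, 16.2 and 8.47 CPM with α2 and 10.3, 13.1, 16.5 and 5.65 CPM with the vector, so that replicate 4 was the lowest and replicate 3 the highest in every line. CHAC1, which degrades glutathione, spanned 2.28-fold (adjusted p = 0.0299, at 0.05 or above in 8 of 18 alternatives, 9.07e-05 to 0.0858, among them those without replicate 1 or 4 of DU145KO, replicate 1 of DU145KO+α2 or any replicate of DU145KO+vector). The transcription factor CEBPB spanned 1.13-fold and did not pass (adjusted p = 0.585). ATF5, of the same family as ATF4, passed (adjusted p = 0.0276) but ran differently from the others, with its highest mean at number 4. DDIT3, NUPR1 and CHAC1 were picked after their values were seen.

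Among the enzymes of amino acid synthesis, ASNS (asparagine synthetase) had 77.3, 129.5, 255 and 66.7 CPM in DU145KO, 78.9, 101, 121 and 69.9 CPM with α2 and 82.9, 133, 158 and 73.1 CPM with the vector. The order of the replicates was the same in all 3 lines, with 3 above 2 above 1 above 4. Its number means lay 2.43-fold apart (edgeR's quasi-likelihood test, adjusted p = 0.0146; 1.81e-07 to 0.0429 in 18 alternatives). It alone of the 6 synthesis genes passed. Of the genes of the serine pathway, PSAT1 spanned 1.63-fold (adjusted p = 0.0594), PHGDH 1.68-fold (0.0999) and PSPH 1.10-fold (0.184), while CTH, which makes cysteine, spanned 1.41-fold (0.0586) and the mitochondrial PEP carboxykinase PCK2 1.87-fold (0.0577).

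The 3 mitochondrial one-carbon genes all varied with the number. ALDH1L2, which oxidises formyl-tetrahydrofolate, spanned 2.27-fold (adjusted p = 0.0102), SHMT2, which splits serine, 1.42-fold (0.0161) and MTHFD2, the dehydrogenase and cyclohydrolase, 1.31-fold (0.0293). All 3 had their highest mean at number 3 and their lowest at number 4, and replicate 3 was the highest in every line for ALDH1L2 and MTHFD2.

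**Figure D2:**
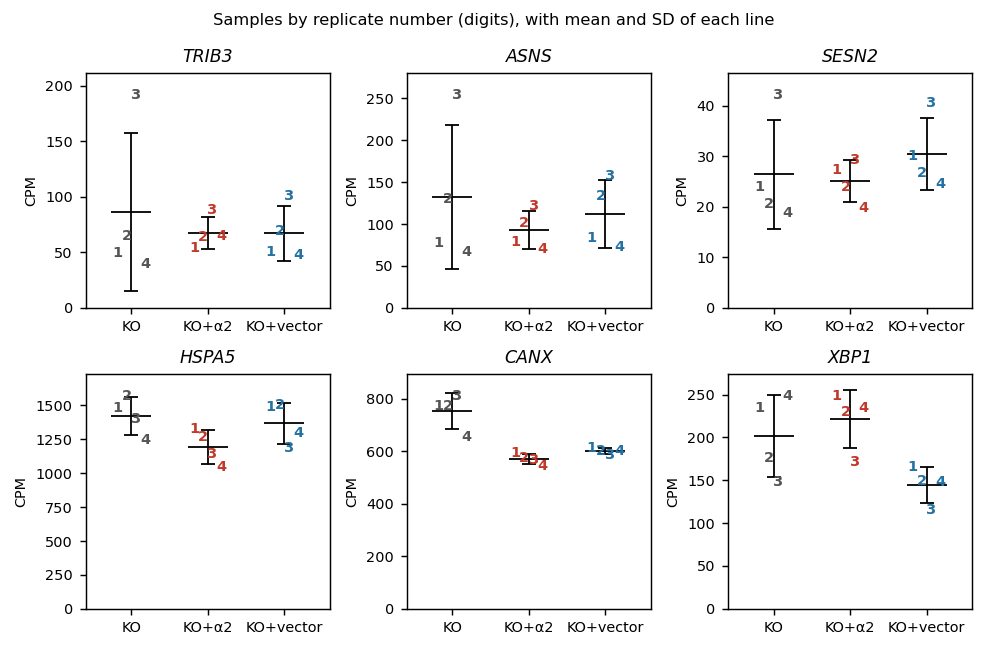
CPM in each sample for single genes of both arms, by line, with each digit marking a sample by its replicate number and bars giving the mean ± SD of the 4 replicates of a line. ASNS and TRIB3 reach 255 and 192 CPM in replicate 3 of DU145KO, whereas HSPA5 stays between 1047 and 1574 CPM in all samples.

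The ER chaperones moved little with the number. HSPA5 had 1483, 1574, 1398 and 1245 CPM in DU145KO, 1326, 1270.3, 1141 and 1047 CPM with α2 and 1485, 1502, 1186 and 1299 CPM with the vector. Replicates 1 and 2 were above 3 and 4 in every line, and the number means spanned 1.21-fold (edgeR's quasi-likelihood test, adjusted p = 0.00495). PDIA4, a disulfide isomerase, had 442, 453, 391 and 458 CPM in DU145KO, 417, 421, 368 and 386 CPM with α2 and 461, 460.0, 419 and 441 CPM with the vector. Its lowest sample was replicate 3 in every line, with a span of 1.13-fold (adjusted p = 0.0622). MANF, an ER-resident survival factor, and CRELD2, an ER-resident stress protein, were also lowest in replicate 3 of every line, with spans of 1.19-fold (adjusted p = 0.016) and 1.15-fold (0.151). PDIA6 (1.15-fold, 0.0364) and CALR (1.16-fold, 0.0394) passed, and HSP90B1, PDIA3, CANX, DNAJB9, DNAJC3, SDF2L1 and HYOU1 did not, with spans of 1.09-fold to 1.17-fold.

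All 4 genes of the degradation and XBP1 group varied with the number, but not in one direction. XBP1, the transcription factor whose mRNA IRE1 splices, had 234.5, 175, 147 and 249 CPM in DU145KO, 248, 229.8, 172 and 235 CPM with α2 and 166, 149, 116 and 148 CPM with the vector. Replicate 3 was the lowest in each line, the opposite of TRIB3 and ASNS. The number means lay 1.49-fold apart with the smallest p of the 34 genes (edgeR's quasi-likelihood test, adjusted p = 0.000123), and with the samples numbered 3 left out the adjusted p was 0.0866, the highest of 18 alternatives. Counts per gene do not separate spliced from unspliced XBP1 mRNA.

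EDEM1, which passes misfolded glycoproteins on to degradation, had 167, 215, 141 and 174 CPM in DU145KO, 131, 185, 144 and 189 CPM with α2 and 154, 174, 146 and 163 CPM with the vector. Its highest number mean was that of 2 and its lowest that of 3, 1.32-fold apart (adjusted p = 0.00258, edgeR). HERPUD1, a membrane component of ER-associated degradation, went the way of the ATF4 arm, with its highest mean at number 3 and its lowest at number 4 (1.58-fold, adjusted p = 0.0331), the widest span in the ER arm. SEL1L, the partner of the ubiquitin ligase HRD1, had the same order at 1.26-fold (adjusted p = 0.0127).

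**Figure D3:**
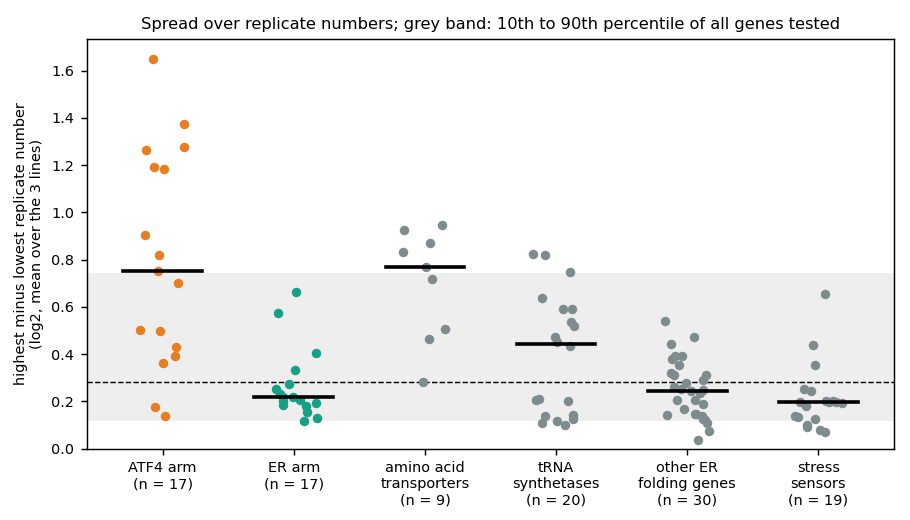
Distance between the highest and lowest replicate number mean of each gene on the log2 scale (vertical axis), for the 17 genes of each arm. Genes of the amino acid transporter, tRNA synthetase, other ER folding and stress sensor lists stand beside them. A grey band runs from the 10th to the 90th percentile of all 14732 genes (0.12 to 0.74), with a dashed line at their median (0.28). NUPR1 (1.65), DDIT3 (1.37), ASNS (1.28) and TRIB3 (1.27) are the 4 widest and lie beyond the band, and no ER arm gene lies above it.

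The spread between replicates was not of one size in the lines. Taken gene by gene, the highest replicate of the ATF4 arm stood a median of 2.40-fold above the lowest in DU145KO, 1.46-fold in DU145KO+α2 and 1.56-fold in DU145KO+vector, against 1.29-fold, 1.28-fold and 1.26-fold over all genes. For the ER arm the medians were 1.24-fold, 1.17-fold and 1.17-fold. Replicate 3 was the highest for 14 of the 17 ATF4 arm genes in DU145KO (27.3% of all genes), for 11 in DU145KO+α2 (24.6%) and for 12 in DU145KO+vector (23.1%). At the other end, replicate 4 was the lowest for 13 ATF4 arm genes in DU145KO (26.6% of all genes), 8 in DU145KO+α2 (21.8%) and 13 in DU145KO+vector (26.2%).

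Averaged over the 17 genes as log2 CPM about each gene's mean, the ATF4 arm stood at -0.20, 0.09, 0.80 and -0.36 in replicates 1 to 4 of DU145KO, at -0.16, -0.09, 0.10 and -0.25 in DU145KO+α2 and at -0.10, 0.14, 0.32 and -0.29 in DU145KO+vector. The order of the 4 replicates was 3, 2, 1 and 4 in each line. From the lowest to the highest replicate the arm mean rose 2.23-fold in DU145KO, 1.27-fold in DU145KO+α2 and 1.52-fold in DU145KO+vector, whereas that of the ER arm differed by 1.07-fold, 1.09-fold and 1.09-fold. With 1 sample for each line and number, a difference between the lines in this spread could not be tested. Without replicate 3 of DU145KO, 14 rather than 11 ATF4 arm genes varied with the number.

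**Figure D4:**
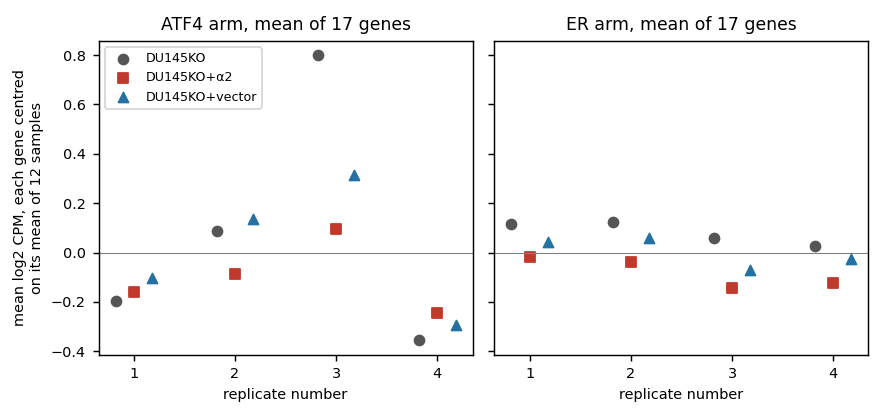
Mean of the centred log2 CPM over the 17 genes of each arm (vertical axis) against the replicate number, with the 3 cell lines marked by colour and shape. The ATF4 arm peaks at number 3 in all 3 lines, from 0.10 in DU145KO+α2 to 0.80 in DU145KO, while the ER arm stays between -0.15 and 0.12.

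The α2 positive cells were next compared with the vector control. Each is 1 stably transfected line, so an effect of α2 cannot be told apart from other differences between these lines. By edgeR's quasi-likelihood test with Benjamini-Hochberg adjustment over all genes, 0 of 17 ATF4 arm genes and 1 of 17 ER arm genes differed, against 11.9% of all genes tested (5.96% higher and 5.95% lower in DU145KO+α2). Of the ATF4 arm, 3 genes had an unadjusted p under 0.05, DESeq2 called 1 and voom with limma called 0. The shares of all genes in these alternatives are not given, so these counts have no background beside them. The ER arm gene that rose was XBP1, whose values in every sample are given above. Its mean was 221 ± 33.7 CPM (SD, n = 4) in DU145KO+α2 and 145 ± 21.0 CPM with the vector, and the lowest α2 positive sample (172 CPM) lay above the highest vector sample (166 CPM). The log2 fold change was 0.61 (SE 0.17, 1.53-fold; adjusted p = 0.0327) and it was above 0 in 4 of 4 pairs with the same number. XBP1 did not pass without 6 of the 12 samples in turn, namely replicates 1, 2 and 4 of DU145KO+α2 and 2, 3 and 4 of DU145KO+vector, nor with no filter on low counts, with adjusted p-values of 1.92e-06 to 0.0952 over 21 alternatives. The fits with a sample left out did not have the replicate number in the model, and the fit with line and number gave the 1.92e-06. DU145KO, with a mean of 202 ± 48.1 CPM, did not differ detectably from DU145KO+α2 in XBP1 (log2 fold change 0.13, SE 0.17, adjusted p = 0.727).

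The other ER arm genes leaned the other way, each by little. Of the 17 genes, 15 had a log2 fold change below 0 in DU145KO+α2 against DU145KO+vector (51.4% of all genes), with a median of -0.12 against -0.01 over all genes. The median of the ATF4 arm was -0.20, and 11 of its 17 genes were below 0. Since same-numbered samples deviated together, the fit was repeated with the replicate number as a block, which called 26.5% of all genes (12.9% higher and 13.7% lower). With the block, HSPA5 (log2 fold change -0.19, adjusted p = 0.018), PDIA3 (-0.15, 0.0494), PDIA4 (-0.16, 0.0211) and CALR (-0.25, 0.00229) were lower in DU145KO+α2, and XBP1 was higher (0.61, 1.92e-06), which makes 5 ER arm genes. In the ATF4 arm the block called 2 genes, SHMT2 lower (-0.47, adjusted p = 0.00622) and CTH higher (0.46, 0.0174). HSPA5, PDIA4 and CALR were each lower in 4 of 4 same-numbered pairs. So were other genes of both arms, among them HSP90B1, ASNS, DDIT3 and SESN2, and the share over all genes was not counted.

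SHMT2 had 90.3, 111, 106 and 93.7 CPM with α2, 122, 156, 162 and 120.1 CPM with the vector and 123, 139, 209 and 112 CPM in DU145KO. The 4 α2 positive samples lay below all 8 others. Without the block its log2 fold change was -0.48 against DU145KO+vector (SE 0.18, adjusted p = 0.101) and -0.54 against DU145KO (SE 0.18, 0.0842), and neither passed. The α2 positive samples of PSAT1, the serine pathway transaminase, at 287 to 355 CPM, also lay below the vector samples at 381 to 564 CPM (log2 fold change -0.57, SE 0.26, adjusted p = 0.201), and the 40 tested genes nearest to it on chromosome 9 had a median log2 fold change of -0.28. The 40 genes around HSPA5, on the same chromosome, had a median of -0.33, below the -0.19 of HSPA5 itself. The part of such regional shifts in the values of HSPA5 and PSAT1 was not tested. CTH had 17.3, 9.94, 10.2 and 8.40 CPM with α2 against 9.59, 8.69, 7.48 and 7.09 CPM with the vector, groups that overlap, and replicate 1 of DU145KO+α2 stood apart from the rest. Without that sample the log2 fold change of CTH in the fit without the block was 0.21 rather than 0.48.

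Against the parental α2 negative cells, 0 of 17 ATF4 arm genes and 2 of 17 ER arm genes were called in DU145KO+α2, both lower, where 8.17% of all genes were called (3.09% higher and 5.08% lower). In the ATF4 arm 3 genes had an unadjusted p under 0.05, DESeq2 called 1 and voom with limma 0, again without the shares of all genes beside them. CANX (calnexin), the membrane-bound lectin chaperone of glycoproteins, had 772, 771, 812 and 655 CPM in DU145KO, 593, 574, 567 and 544 CPM with α2 and 613, 602, 585 and 602 CPM with the vector. All DU145KO samples lay above all 8 samples of the transfected lines. The log2 fold change was -0.40 for DU145KO+α2 against DU145KO (SE 0.08, adjusted p = 0.00351 by edgeR's quasi-likelihood test), and it passed in 20 of 21 alternatives, all but the one without the samples numbered 3 (0.0587; range 3.03e-06 to 0.0587). The 40 genes around CANX on chromosome 5 had a median of -0.14.

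HYOU1, an ER chaperone also known as ORP150, had 227, 257, 293 and 244 CPM in DU145KO and 213, 226, 208 and 199.8 CPM with α2. The groups were separated by less than 1 CPM at their nearest samples. Its log2 fold change was -0.27 (SE 0.08, adjusted p = 0.044), and it passed in 8 of 21 alternatives (0.00188 to 0.326), failing by edgeR without each of 9 of the 12 samples (all but replicates 1 and 4 of DU145KO and replicate 2 of DU145KO+α2). In all, 16 of 17 ER arm genes had a log2 fold change below 0 (50.8% of all genes), with a median of -0.15. With the block, where 22.3% of all genes were called (9.93% higher and 12.4% lower), 7 ER arm genes were lower in DU145KO+α2: CANX (-0.40, adjusted p = 2.54e-05), HYOU1 (-0.27, 0.00188), MANF (-0.30, 0.00116), HSPA5 (-0.25, 0.00345), PDIA3 (-0.23, 0.00419), CALR (-0.22, 0.00824) and the co-chaperone DNAJB9 (-0.19, 0.0397), as was SHMT2 of the ATF4 arm (-0.51, 0.00499). The median of the ATF4 arm, -0.35, was -0.21 with the block and 0.028 without replicate 3 of DU145KO, whose ATF4 arm mean was the highest of the 12.

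The vector control differed from DU145KO in 1 of the 34 genes, with 2.34% of all genes called (0.496% higher and 1.84% lower). CANX was lower in DU145KO+vector, at a log2 fold change of -0.33 (SE 0.08, adjusted p = 0.0356), which passed in 10 of 21 alternatives (0.000591 to 0.29) and failed without each of 8 samples, namely replicates 1, 2 and 3 of DU145KO, replicate 3 of DU145KO+α2 and each replicate of DU145KO+vector. The 40 genes around it had a median of -0.17. CANX was thus lower than in DU145KO in both transfected lines, and between these it did not differ detectably (adjusted p = 0.605). No gene of the ATF4 arm was called by edgeR's quasi-likelihood test, DESeq2 or voom with limma, and 0 had an unadjusted p under 0.05. Its median of -0.15, with 15 of 17 genes below 0 (50.3% of all genes), was 0.28 without replicate 3 of DU145KO. With the block, which called 13.4% of all genes (5.59% higher and 7.85% lower), XBP1 was also lower in DU145KO+vector (-0.46, SE 0.07, adjusted p = 0.000155), being lower in 4 of 4 same-numbered pairs. Samples of the compared lines did not overlap at all for 4 members in DU145KO+α2 against DU145KO+vector (17.2% of all genes), for 8 members in DU145KO+α2 against DU145KO (12.9%) and for 4 members in DU145KO+vector against DU145KO (8.76%). When a fold change over 2 was also required, 0 of the 34 genes were called by edgeR in any of these comparisons, as against 2.21%, 2.1% and 0.835% of all genes. The 3 comparisons share their samples in pairs and are not independent of each other.

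**Figure D5:**
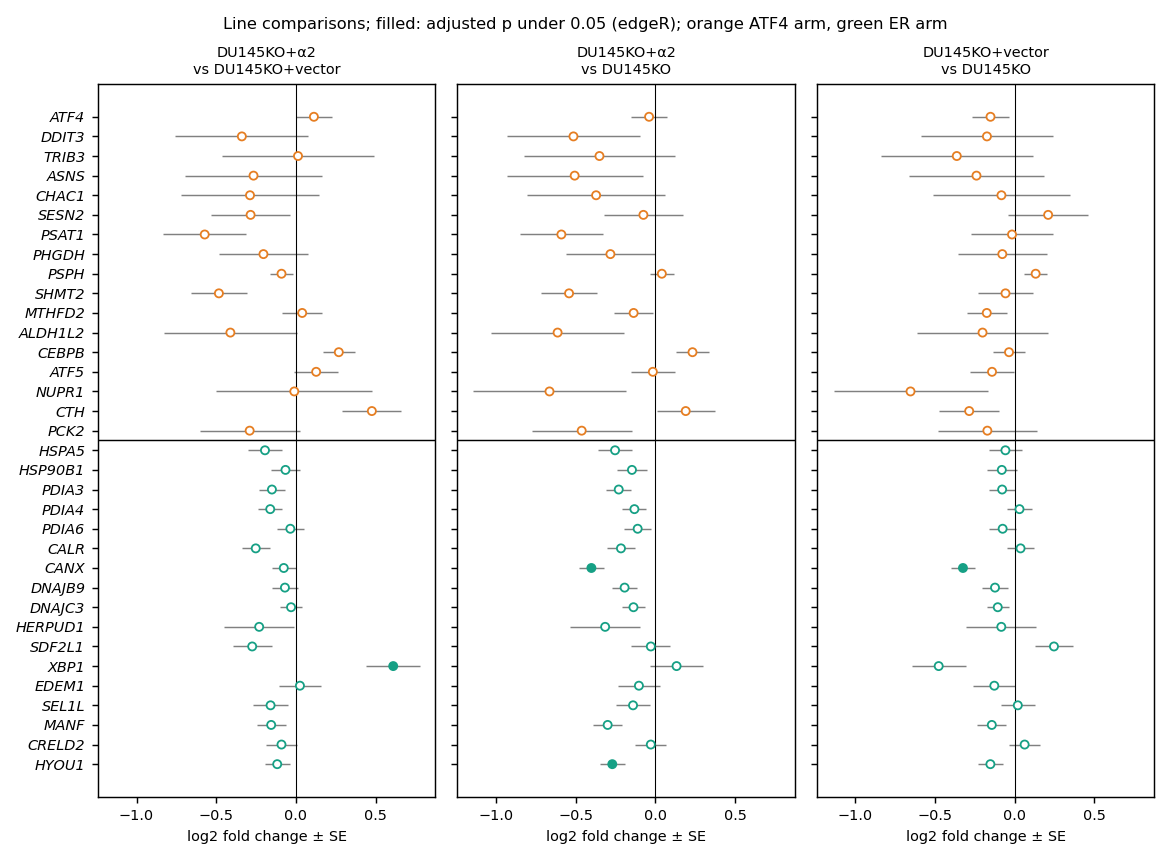
Log2 fold change of each of the 34 genes in the 3 line comparisons (panels), with bars of 1 standard error from edgeR's fit without the block and filled points where the adjusted p was under 0.05. XBP1 stands at 0.61 in DU145KO+α2 against DU145KO+vector and CANX at -0.40 and -0.33 in the comparisons with DU145KO, and the bars are wider in the ATF4 arm (median 0.26 for DU145KO+α2 against DU145KO+vector) than in the ER arm (0.09).

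Reads could be shared with other annotated genes for some members. Exons of genes on the opposite strand overlap 25.2% of the exon bases of PDIA6 (ATP6V1C2), 19.5% of ATF5 (NUP62), 12.6% of CEBPB (CEBPB-AS1) and 11.6% of MTHFD2 (SLC4A5) in the GENCODE annotation. They also overlap 5.28% of PDIA3 (ELL3), 4.64% of CANX (CBY3) and 4.44% of DDIT3 (MBD6), and less of CRELD2 and SHMT2. Whether strand was used in the counting is not given, so these values, and those of ATF4, PSAT1, PSPH, PDIA3 and HSP90B1, which have processed pseudogene copies elsewhere in the genome, are less certain. XBP1 (chr22:28794555-28800597), TRIB3 (chr20:362835-397559), ASNS (chr7:97851677-97872542), SESN2 (chr1:28259518-28282491) and HYOU1 (chr11:119044188-119057227, all on hg38) had no such overlap.

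Genes that work beside the ATF4 arm were read from lists of their own. Amino acid transporters followed the replicate number most evenly, with 8 of the 9 tested passing (35.7% of all genes), a median span of 0.77 on the log2 scale, and the highest mean at number 3 in all 9. SLC7A11, which exchanges cystine for glutamate, spanned 0.87 (edgeR's quasi-likelihood test, adjusted p = 0.00325), the neutral amino acid transporter SLC1A4 0.93 (0.00768) and the cationic amino acid transporter SLC7A1 0.77 (2.03e-05). Of the 20 cytosolic aminoacyl-tRNA synthetases 10 passed, and all 10 had their highest mean at number 3, among them CARS (0.59) and IARS (0.75). Of 20 further targets of ATF4 and CHOP 14 passed, in more than one order. STC2 (1.25), CEBPG (0.82) and JDP2 (0.72) were highest at number 3, the secreted stress cytokine GDF15 had the widest span of 1.99 and was highest at number 1, and ATF3 (1.02) was highest at number 4.

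Lists closer to the ER arm gave smaller spans. Of 30 further genes of ER folding, translocation and degradation 17 passed (56.7%, against 35.7% of all genes), with a median span of 0.25, and replicate 3 was the highest of every line in 0 of the 30 (6.75% of all genes). Of the 19 stress sensors and eIF2 factors 5 passed (26.3%, below the share of all genes), among them the sensor genes ERN1 (IRE1; 0.66, highest at number 3), ATF6 (0.44, highest at number 3) and EIF2AK3 (PERK; 0.36, highest at number 2). The cytosolic heat shock genes, which answer unfolded protein outside the ER, passed in 10 of 12 (83.3%), with the near-identical copies HSPA1A and HSPA1B both highest at number 2 and HSPA8 at number 4. No heat shock gene had its highest mean at number 3. Mitochondrial chaperones and proteases passed in 2 of 8 (25%), also below the share of all genes.

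Between the lines, 4 of the 20 further ATF4 and CHOP targets were higher in DU145KO+α2 than in the vector control by edgeR's quasi-likelihood test without the block, where 5.96% of all genes were higher and 5.95% lower. With the block 6 were higher and 2 lower (12.9% and 13.7% of all genes). The 4 were TNFRSF10B, the death receptor DR5, with a mean of 248 against 162 CPM (log2 fold change 0.62, SE 0.12, adjusted p = 0.003), GADD45A, a growth arrest gene, with 135 against 95.2 CPM (0.50, 0.0199), the lipoprotein receptor VLDLR (0.36, 0.0408) and the ER oxidase ERO1A (0.26, 0.0423). Transporters, synthetases and cytosolic heat shock genes were called there with the block alone, which called 1 transporter higher and 1 lower of 9, 5 synthetases lower of 20 and 3 heat shock genes lower of 12. Of the 30 further ER genes 1 was higher, ERO1B, another ER oxidase, with 30.5 against 17.9 CPM (0.77, SE 0.15, adjusted p = 0.0027), and 5 were lower, led by ERP44, which retains ERO1 oxidases in the early secretory pathway, with 63.0 against 93.4 CPM (-0.57, SE 0.07), SIL1, the nucleotide exchange factor of BiP, with 27.8 against 37.4 CPM (-0.43, SE 0.11), and the translocon subunit SEC61B (-0.34, SE 0.08). With the block 1 of the 30 was higher and 10 were lower. The surroundings of the genes in these lists were not examined for regional shifts such as those around HSPA5 and PSAT1. ERP44 and SIL1 were also lower in DU145KO+α2 than in DU145KO (-0.52 and -0.60), as was UGGT1, the folding sensor of the calnexin cycle (-0.32). Among the sensors, the mitochondrial protease OMA1 (-0.41, adjusted p = 0.0031) and EIF2AK2, the kinase PKR (-0.24, 0.0395), were lower in DU145KO+α2 than in the vector control, and CREB3L2 was lower in DU145KO+vector than in DU145KO (-0.32, 0.0495). Against DU145KO, the α2 positive cells also had less EIF2AK2 (-0.42, adjusted p = 0.0017) and less of the arginyl-tRNA synthetase RARS (-0.28, 0.0129), and more VLDLR (0.36, 0.0479). The mitochondrial co-chaperone GRPEL1 was higher with α2 than with the vector (0.26, adjusted p = 0.0485), and it was the only gene of its list of 8 called without the block in the 3 comparisons, while the block called 2 in DU145KO+α2 against DU145KO+vector, 1 in DU145KO+α2 against DU145KO and 2 in DU145KO+vector against DU145KO.

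The block also called more genes of several lists against DU145KO. In DU145KO+α2, where it called 22.3% of all genes against 8.17% without it, synthetases called went from 1 to 11 of 20 (10 of them lower), further ER genes from 3 to 11 of 30 (10 lower), further ATF4 and CHOP targets from 1 to 7 of 20 (4 higher and 3 lower), sensors and eIF2 factors from 1 to 4 of 19, heat shock genes to 5 of 12, all lower, and transporters to 2 of 9. In DU145KO+vector, where it called 13.4% of all genes against 2.34%, it called 3 further ATF4 and CHOP targets, all lower, 3 sensors and eIF2 factors, all lower, and 3 further ER genes, 1 of them higher. For DU145KO+α2 against DU145KO+vector the sensors and eIF2 factors called went from 2 to 5, of which 4 were lower.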

How the data were processed

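Poly(A) RNA of 12 spheroid cultures was sequenced by the authors from a stranded mRNA library kit as 50 base single-end reads on 2 lanes. The submitters' processing notes name bcl2fastq 1.8.4, TopHat2 2.1.0, Subread 1.5.0, edgeR, limma and the build hg38, and whether the counting used strand is not given in the sources used here. The deposited counts per gene were used for all tests, and the RPKM values, which the authors scaled for depth and gene length, only for levels between genes.

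Genes were filtered with filterByExpr at a minimum count of 10, normalised by TMM and tested with edgeR 4.0.16 (R 4.3.3) by the two-sided quasi-likelihood test on all 12 samples with line as the term, and a gene was called at an adjusted p (Benjamini-Hochberg over 14732 genes) under 0.05. This differs from the study's voom and fold change over 2, which were run as alternatives with limma 3.58.1, as was DESeq2 1.42.0. Log2 CPM used a prior count of 0.5. The total counts, with a median of 16446500.5, put 3 counts at 0.150 to 0.215 CPM, and this covers counting error only. No pair of samples of a line agreed within sampling noise. Same-numbered samples of different lines correlated in their deviations from the line means (0.13 to 0.53 over 12 pairs, against -0.28 to 0.14 over 36 pairs of different numbers), so the numbers were taken to pair the samples. The numbers come from the labels, and the fit with the number as a block is given beside the main fit where it changes a member's call or a list's count of calls.

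The 34 members and all gene lists were chosen with earlier results of these data known. Values in every sample were given for members called in DU145KO+α2 against DU145KO+vector, for members called with a log2 fold change over 0.5 in another comparison, for the 4 with the smallest p for the replicate number and for the 4 genes that define the arms. Other members were named after their values were seen. From other lists, up to 3 called genes by size were named in each comparison, and the rest after their values were seen. Scripts were tested on simulated data. RefSeq promoters (GRCh38.p14) were searched on both strands.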

Additional observations from a re-analysis of the deposited data

Results flagged for a closer look

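Dixon's gap ratio, the gap to the nearest sample over the whole range, was taken in 111 sets of 4 replicates. The sets were the members' CPM, the arm means and the total counts in each line. Of these sets 3 held a sample far from the others, where about 1 in 20 (5.55 sets) would by chance. All 3 were in DU145KO, and in each the high sample was replicate 3. TRIB3 had a ratio of 0.837, with 192 CPM against 39.6 to 64.4 CPM in the others. CHAC1 had a ratio of 0.846, with 38.6 CPM against 10.6 to 14.9 CPM. CTH had a ratio of 0.893, though with 10.9 CPM against 9.66 to 9.79 CPM the distance itself was small.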

How the results depend on the processing

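Among the members whose fold changes were followed through the alternatives, no call turned its direction. Of their 882 values under alternatives, 30 changed sign with no call on either side. The direction of calls in other genes was not followed. Genes called for DU145KO+α2 against DU145KO+vector, DU145KO+α2 against DU145KO and DU145KO+vector against DU145KO numbered 1754, 1203 and 344, and 325, 309 and 123 with a fold change over 2 also required. With the replicate number as a block they were 3911, 3286 and 1980, and beyond the members named with it in the results the block changed no call among the 34 genes. Without the samples numbered 3 (an alternative chosen after seeing the data, as was the unadjusted p) they were 858, 568 and 90. DESeq2's own test called 587 genes in the last comparison. ER arm genes called, 1, 2 and 1 in these comparisons, were 0, 0 and 0 with a fold change over 2, 4, 7 and 2 at an unadjusted p under 0.05, 0, 1 and 0 with no filter, and 5, 7 and 2 with the block. With only the lines compared they were 1 in DU145KO+α2 against DU145KO and 0 in DU145KO+vector against DU145KO, and without the samples numbered 3 both were 0. For DU145KO+α2 against DU145KO+vector they were 2 by library size alone and 2 by DESeq2, and for DU145KO+α2 against DU145KO 1 by DESeq2's size factors. ATF4 arm genes, 0 in each comparison, were 1 in either comparison of DU145KO+α2 by DESeq2, 3 at the unadjusted p, and with the block 2 against DU145KO+vector and 1 against DU145KO, and with only the lines compared 2 against DU145KO+vector. The share of all genes at the unadjusted p was not counted, so the counts of either arm at that threshold have no background beside them. ER arm genes varying with the number were 5 without the samples numbered 3. Fewer samples or genes tested, or the threshold itself, were part of these alternatives, and other causes were not tested.

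In the fit without the block, leaving out 1 sample at a time gave 1229 to 1841, 837 to 1197 and 160 to 528 genes, with 0 to 1, 1 to 2 and 0 to 1 ER arm genes and 0 to 2 (2 without replicate 3 of DU145KO), 0 to 1 and 0 to 0 ATF4 arm genes. Medians of the ATF4 arm ran from -0.31 to -0.05, from -0.57 to 0.028 and from -0.27 to 0.28, and those of the ER arm from -0.14 to -0.10, from -0.21 to -0.12 and from -0.12 to -0.04. For the replicate number 3734 to 5480 genes, 7 (without replicate 4 of DU145KO+vector) to 14 ATF4 arm genes and 5 to 8 ER arm genes were called. With 4 samples a line, changes of the size seen in the ATF4 arm could be missed. The median standard error of the arm for DU145KO+α2 against DU145KO+vector was 0.26 without the block and 0.17 with it.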
